A study of Homo sapiens with 12 samples.

Results

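The subject is a group of 10 canonical target genes of the transcription factor NF-kB, labelled feedback and survival targets. They are NFKBIA, NFKBIZ, TNFAIP2, TNFAIP3, TNIP1, IER3, BIRC3, ICAM1, CFLAR and BCL3. The label is loose, since ICAM1, TNFAIP2 and NFKBIZ are described below by other roles. The members were taken by gene symbol, each matched 1 Ensembl ID of the 20286 in the table, and all 10 passed the filter that left 13512 genes for testing. RNA was sequenced from HK-2 cells, an immortalised line of human proximal tubule epithelium labelled wild type (WT) and grown in DMEM with fetal bovine serum. The 3 treated groups received recombinant S100A9, recombinant S100A8 or recombinant S100A8/S100A9 for 48 h, and the control group received medium with a matching amount of phosphate-buffered saline (PBS). Each of the 4 groups held 3 libraries. The dose is printed in the labels as 5 mg/mL, a unit that could not be checked. Nothing in the labels says that replicates were separate cultures, so p-values here reflect the spread among these libraries alone, and that spread may be technical. A single line was used at a single time, and in bulk RNA a change in the number of expressing cells and a change in RNA per cell cannot be told apart.

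Calprotectin is the heterodimer of S100A8 and S100A9, calcium-binding proteins that myeloid cells release, and the receptors TLR4 and RAGE are known to bind them. NF-kB dimers sit in the cytoplasm bound to inhibitory proteins of the IkB family until a kinase complex marks the inhibitor for degradation, after which the freed dimers enter the nucleus and bind short kB sites in DNA. Among the first genes they switch on are their own inhibitors, which closes a negative feedback loop, together with genes that block caspases and so protect the cell while it is inflamed. In kidney tubule epithelium the pathway is known for driving chemokines and adhesion molecules during injury.

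Positions are from GENCODE release 29 on GRCh38. The core inhibitors are NFKBIA (ENSG00000100906, chr14:35401511-35404749, minus strand), which encodes IkB-alpha, TNFAIP3 (ENSG00000118503, chr6:137867188-137883312, plus strand), which encodes the ubiquitin editor A20, and TNIP1 (ENSG00000145901, chr5:151029945-151093577, minus strand), which encodes an A20 partner that binds ubiquitin chains. The atypical nuclear IkB proteins are NFKBIZ (ENSG00000144802, chr3:101827991-101861022, plus strand), which encodes IkB-zeta, a co-activator of secondary targets, and BCL3 (ENSG00000069399, chr19:44747705-44760044, plus strand), which binds p50 and p52 homodimers. The survival genes are BIRC3 (ENSG00000023445, chr11:102317450-102339403, plus strand), which encodes the ubiquitin ligase cIAP2, CFLAR (ENSG00000003402, chr2:201116104-201176687, plus strand), which encodes the caspase-8 inhibitor c-FLIP, and IER3 (ENSG00000137331, chr6:30743199-30744554, minus strand), an early response gene that modulates apoptosis. The remaining members are ICAM1 (ENSG00000090339, chr19:10270835-10286615, plus strand), the endothelial and epithelial ligand of leukocyte integrins, and TNFAIP2 (ENSG00000185215, chr14:103123442-103137439, plus strand), a cytokine-induced gene linked to membrane protrusions. TNFAIP3, IER3, ICAM1 and CFLAR each overlap an annotated gene on the opposite strand. On the same strand CFLAR overlaps RNU7-45P and AC007283.1, and BCL3 overlaps MIR8085. Use of strand in counting is not given in the sources used here, and strand would not separate the same-strand partners. Reads of the partners therefore cannot be told apart.

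NF-kB acts through kB sites, so the promoters of the members were read for them. RefSeq start sites on GRCh38.p14 gave windows of 300 bases, 250 before to 50 after the start, for 9 of the members (14 windows). The consensus NF-kB motif of 10 letters, on either strand, was present in 8 of the 14 member windows and in 7 of the 9 members. Over all promoters it was present in 11.3% of 35116 windows and in 13.3% of 27305 genes. The members were listed as canonical NF-kB targets, so a higher share among them is no finding and these shares are descriptive only. A looser pattern, GGGNNNNNCC on either strand, which contains the consensus, was present in all 9 members but also in 61.7% of all genes. The stretches below show the consensus matches, in capitals, for members whose match lies outside annotated exons, and for TNFAIP3 the match pair alone; all are written 5′ to 3′ on the strand of the gene.
NFKBIA, chr14:35404796-35404855, minus strand: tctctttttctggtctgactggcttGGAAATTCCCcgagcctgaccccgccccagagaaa
NFKBIZ, chr3:101827742-101827801, plus strand: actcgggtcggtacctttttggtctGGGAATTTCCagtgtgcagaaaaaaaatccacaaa
BIRC3, chr11:102317260-102317383, plus strand: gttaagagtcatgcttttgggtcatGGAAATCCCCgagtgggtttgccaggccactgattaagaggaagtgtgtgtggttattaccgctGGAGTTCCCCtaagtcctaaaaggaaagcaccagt
TNFAIP3, chr6:137867192-137867213, plus strand: GGAAAGTCCCgtGGAAATCCCC
Counting back from the base before the start site as -1, the match of NFKBIA began at -81 and read GGGAATTTCC on the opposite strand, the same 10 letters as the match of NFKBIZ at -223. A further NFKBIZ start site, inside the gene, had the match GGGGTTTCCC at -239 (chr3:101849275-101849284), within an annotated NFKBIZ exon. TNFAIP3 had a pair of matches beginning at -67 and -55, and BIRC3 a pair beginning at -199 and -135. The TNFAIP3 pair lies within an exon annotated for TNFAIP3 and within the opposite-strand gene AL357060.1. TNIP1 held GGGACTTTCC (chr5:151081067-151081076), CFLAR held GGGGAATTCC (chr2:201118619-201118628) and BCL3 held GGGAAGTCCC (chr19:44748710-44748719), each inside an exon annotated for the same gene. The windows of TNFAIP2 and ICAM1 held the looser pattern and not the consensus. A match is a description of letters in this window and shows neither binding nor activity.

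All 10 members were expressed in control cells, ICAM1 at the highest and BCL3 at the lowest level per unit of gene length. On the FPKM scale, which corrects for length, ICAM1 was highest at 57.5 ± 0.497 and IER3 stood at 54.9 ± 2.49 (SD, n = 3), with overlapping control libraries. NFKBIZ followed at 48.6 ± 1.66 FPKM. TNFAIP2 at 29.9 ± 2.85 FPKM and CFLAR at 29.4 ± 0.437 FPKM overlapped, NFKBIA stood at 26.5 ± 1.37 FPKM, TNIP1 at 23.9 ± 1.20 and TNFAIP3 at 19.6 ± 1.88. BIRC3 at 5.06 ± 0.102 FPKM and BCL3 at 4.50 ± 0.135 FPKM were the lowest of the 10 and lay at the percentiles 31.3 and 29.0 of the tested genes. ICAM1 lay at the percentile 90.2, IER3 at 89.5 and NFKBIZ at 87.8. The gene length implied by count and FPKM differed between libraries by a ratio of 1.69 for BIRC3 and 1.27 for TNFAIP3, so their FPKM are less certain. From here on, levels are TMM-normalised CPM, counts scaled to library totals, which suit comparison of 1 gene between libraries.

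Libraries held 15882193 to 20748334 counts. The 14 epithelial markers summed to between 1.55e+03 and 1.76e+03 CPM, with KRT8 at 508 to 567 CPM and PAX8 at 275 to 366 CPM. The transporter and brush border genes ANPEP, AQP1, LRP2, CUBN and SLC34A1, known from mature proximal tubule, were under 1 CPM in every library. Brush border genes were not all low, since MME lay at 72.9 to 83 CPM and GGT1 at 26.2 to 36.2 CPM. All 6 lymphoid markers were under 1 CPM in every library, the myeloid markers AIF1 and TYROBP were at 0 counts, and PTPRC, the pan-leukocyte marker, reached at most 0.116 CPM. The myeloid markers CSF1R and FCER1G were higher, at 1.83 to 2.96 CPM and 0.525 to 1.15 CPM. The 6 endothelial markers summed to 1.11 to 3.13 CPM, with VWF at 0.936 to 2.67 CPM. The summed myeloid markers lay at 83.5 to 104 CPM in S100A9 libraries and 87.3 to 95.2 CPM in controls, of which CD68, a lysosomal gene not restricted to myeloid cells, made up 79.4 to 100 CPM over all libraries. The 5 fibroblast markers summed to 79.8 to 96.9 CPM in S100A9 libraries and 96.7 to 101 CPM in controls, nearly all from LUM at 73.4 to 103 CPM over all libraries, while COL3A1, DCN and PDGFRA were under 1 CPM. The part of these markers in the results was not tested.

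NFKBIA rose after S100A9, and it was the only member to pass the threshold. The feedback inhibitor IkB-alpha transcript was 1.23-fold higher, and 7 further members had all 3 S100A9 libraries above all 3 controls by smaller margins that did not pass the test over all genes. CFLAR was the exception in sign, with all 3 S100A9 libraries below the controls, and NFKBIZ overlapped the controls. All tests are edgeR quasi-likelihood tests, two-sided, with Benjamini-Hochberg adjustment over 13512 genes and a threshold of 0.05 on the adjusted p. At that threshold 1 of 10 members was called, against 0.148% of all genes (19 higher and 1 lower). The 8 members with separated, higher S100A9 libraries compare with 6.25% of all genes, and the 1 member with separated, lower libraries with 5.77%. At an unadjusted p under 0.05, 7 members were higher, against 3.23% of all genes. The median log2 difference of the 10 members was 0.20, against 0.00 over all genes tested. The members were chosen with earlier results of these data known, so these shares are descriptive only.

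**Figure D1:**
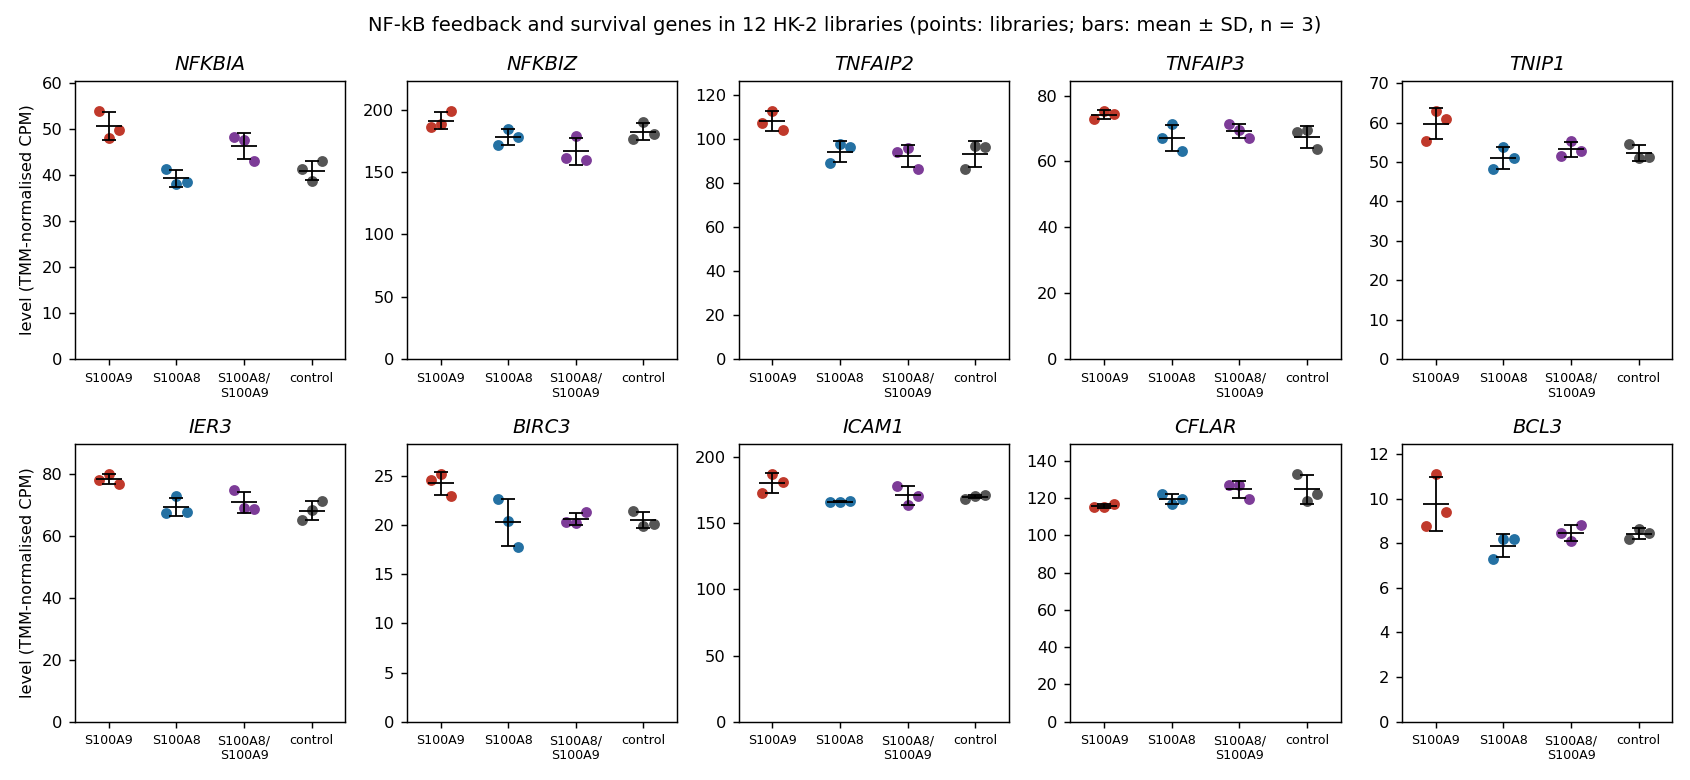
Level of each of the 10 genes in every library (TMM-normalised CPM, linear axes from 0), with points for libraries and bars for mean ± SD, n = 3 per group. In NFKBIA the S100A9 libraries lie between 48.12 and 53.95 CPM and the controls between 38.68 and 42.99 CPM, whereas in NFKBIZ the same groups overlap.

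NFKBIA, the inhibitor that retains NF-kB in the cytoplasm, had 53.95, 48.12 and 49.78 CPM in the S100A9 libraries, against 41.25, 38.68 and 42.99 CPM in the controls. All 3 S100A9 libraries stood above all 3 controls. The log2 difference was 0.30 (SE 0.06, 95% interval 0.17 to 0.43), with an adjusted p of 0.0431 by edgeR. Its mean was 50.6 ± 3.00 CPM after S100A9 and 41.0 ± 2.17 CPM in controls (SD, n = 3 each), from mean counts of 921 and 694 per library. This call sat close to the threshold. It was lost without control replicate 1 (adjusted p 0.174), without control replicate 2 (0.347), without S100A9 replicate 1 (0.333) and without S100A9 replicate 3 (0.182). It was also lost with limma on log2(FPKM + 1) (0.269) and with only the 6 libraries compared (0.0761), while the log2 difference stayed between 0.25 and 0.34 in the 12 alternatives run.

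Samples with the same replicate number deviated together in this comparison, and the edgeR fit with the number as a block gave NFKBIA an adjusted p of 0.00639. In that fit TNFAIP2 passed as well, with a log2 difference of 0.21 and an adjusted p of 0.0286. The block gave 42 genes in place of 20 and 2 members in place of 1.

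The genes of A20 and its partner lay higher after S100A9 without passing the test. TNIP1, the A20 partner, had 55.4, 63.0 and 60.9 CPM in S100A9 libraries, against 54.7, 51.1 and 51.1 CPM in controls. The groups were separated narrowly, S100A9 replicate 1 lying just above control replicate 1. Its log2 difference was 0.19 (SE 0.06, 95% interval 0.07 to 0.31, edgeR adjusted p 0.398). TNFAIP3, which encodes A20, had 72.9, 75.4 and 74.4 CPM in S100A9 libraries, against 68.9, 69.7 and 63.7 CPM in controls. All S100A9 libraries were again the higher ones, with a log2 difference of 0.14 (SE 0.05, 95% interval 0.03 to 0.25, edgeR adjusted p 0.674). On the FPKM scale the groups overlapped for both TNIP1 and TNFAIP3.

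The nuclear IkB genes did not pass the test. NFKBIZ, the co-activator of secondary targets such as LCN2, had 186, 189 and 199 CPM in S100A9 libraries, against 177, 190 and 181 CPM in controls. Control replicate 2 lay above S100A9 replicates 1 and 2, and the log2 difference was 0.07 (95% interval -0.03 to 0.16). BCL3 had 8.78, 11.1 and 9.39 CPM in S100A9 libraries, against 8.17, 8.65 and 8.44 CPM in controls. The S100A9 libraries all lay above the controls. BCL3 is the least abundant member, with a mean of 142 counts per control library, and its interval ran from -0.02 to 0.45 on the log2 scale. The edgeR adjusted p-values were 0.906 for NFKBIZ and 0.857 for BCL3.

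The survival genes differed in sign, and none passed the test. IER3 had 77.9, 80.1 and 76.8 CPM in S100A9 libraries, against 65.0, 68.2 and 71.3 CPM in controls, all S100A9 values being the higher ones. Its log2 difference was 0.20 (SE 0.05, 95% interval 0.09 to 0.31, edgeR adjusted p 0.188). BIRC3, encoding the caspase-regulating ligase cIAP2, had 24.5, 25.2 and 22.9 CPM in S100A9 libraries, against 21.4, 19.9 and 20.1 CPM in controls. The S100A9 libraries were all higher, with a log2 difference of 0.24 (SE 0.08, 95% interval 0.07 to 0.41, edgeR adjusted p 0.593). CFLAR, encoding the caspase-8 inhibitor, had 115, 115 and 117 CPM in S100A9 libraries, against 133, 119 and 122 CPM in controls. Its S100A9 libraries were all lower, with a log2 difference of -0.11 (SE 0.05, 95% interval -0.20 to -0.01, edgeR adjusted p 0.782).

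TNFAIP2 and ICAM1 both had S100A9 libraries wholly above the controls and did not pass the test. TNFAIP2 had 107, 113 and 104 CPM in S100A9 libraries, against 86.3, 96.9 and 96.2 CPM in controls, with no overlap. Its log2 difference of 0.22 (SE 0.05, 95% interval 0.11 to 0.33) had the second smallest unadjusted p of the members, 4.2e-04, and an edgeR adjusted p of 0.153. ICAM1 had 172.6, 187.4 and 180.7 CPM in S100A9 libraries, against 168.5, 170.1 and 171.2 CPM in controls. The S100A9 libraries lay above the controls, S100A9 replicate 1 narrowly, with a log2 difference of 0.09 (SE 0.04, 95% interval 0.00 to 0.17, edgeR adjusted p 0.851).

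**Figure D2:**
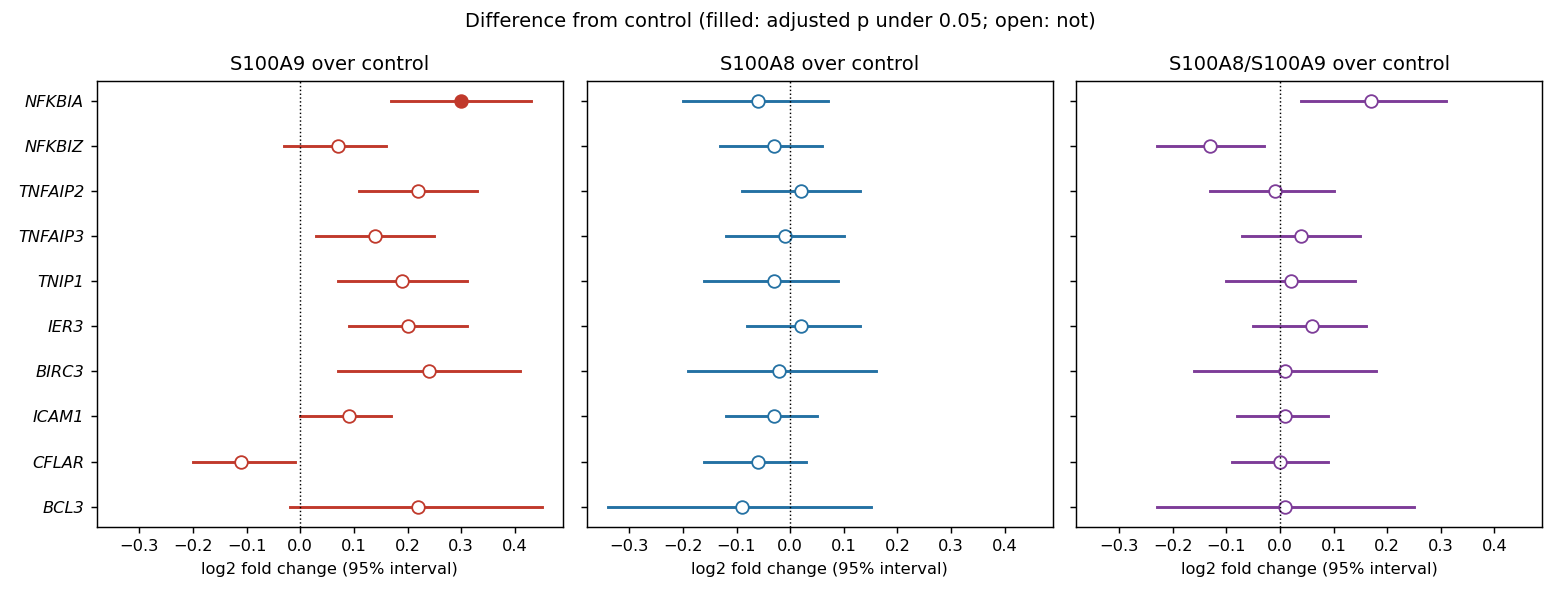
Log2 fold change of each gene over control with its 95% interval (points and horizontal lines), for S100A9, S100A8 and S100A8/S100A9. A filled point marks an adjusted p under 0.05, which only NFKBIA after S100A9 had (0.30, interval 0.17 to 0.43), and an open point marks any other.

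After S100A8 no member passed the test, and the members lay around the control level. The log2 differences ran from -0.09 for BCL3 to 0.02 for TNFAIP2 and IER3, with a median of -0.03 against 0.00 over all genes. Counts of 0 of 10 members compare with 0.00740% of all genes, which was 1 gene, lower. At an unadjusted p under 0.05, 477 genes and 0 members were found by edgeR, and the DESeq2 Wald test called 0 members. No member had all S100A8 libraries above the controls, against 4.41% of all genes. ICAM1 had all 3 below, against 4.13% of all genes. Its values were 165.7, 166.0 and 166.3 CPM in S100A8 libraries and 168.5, 170.1 and 171.2 CPM in controls, a log2 difference of -0.03 (95% interval -0.12 to 0.05). NFKBIA had 41.40, 38.15 and 38.37 CPM in S100A8 libraries, which overlapped the 41.25, 38.68 and 42.99 CPM of the controls. The difference of -0.06 had a 95% interval of -0.20 to 0.07. TNFAIP3 averaged 67.1 ± 4.07 CPM after S100A8 and 67.4 ± 3.24 CPM in controls. BIRC3 had the largest coefficient of variation of the members in this group, at 22.6, 20.4 and 17.8 CPM, which enclosed the 19.9 to 21.4 CPM of the controls. With limma on log2(FPKM + 1) its difference was 0.21 (adjusted p 1.00), against -0.02 on counts. The replicate numbers paired the samples in this comparison too, and the block gave 2 genes in place of 1 and no member.

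After S100A8/S100A9 no member and no other gene passed the test. The share called was 0% of 13512 genes, with a smallest edgeR adjusted p of 0.630 for any gene, and the DESeq2 Wald test called 1 gene and no member. At an unadjusted p under 0.05 there were 757 genes, and 2 members were among them, in opposite directions. NFKBIA had 48.32, 47.52 and 43.04 CPM in S100A8/S100A9 libraries, against 41.25, 38.68 and 42.99 CPM in controls. The groups were separated only by the gap between 43.04 and 42.99 CPM. The log2 difference was 0.17 (SE 0.06, 95% interval 0.04 to 0.31, edgeR adjusted p 0.829). In CPM it was the 1 member of 10 with all libraries above the controls, against 5.30% of all genes. On the FPKM scale NFKBIA overlapped the controls, at 27.52 to 30.85 FPKM after S100A8/S100A9 and 25.04 to 27.78 FPKM in controls. There BIRC3 lay wholly above them instead, at 5.26 to 7.02 FPKM after S100A8/S100A9 and 4.94 to 5.13 FPKM in controls, with limma on log2(FPKM + 1) giving an adjusted p of 0.863. NFKBIZ had 161, 179 and 160 CPM in S100A8/S100A9 libraries, against 177, 190 and 181 CPM in controls. In CPM, replicate 2 overlapped the controls and the other libraries lay below them, with a log2 difference of -0.13 (SE 0.05, 95% interval -0.23 to -0.03, edgeR adjusted p 0.829). On the FPKM scale NFKBIZ lay wholly below the controls, at 42.6 to 46.93 FPKM after S100A8/S100A9 and 47.37 to 50.45 FPKM in controls. It did not pass there with limma on log2(FPKM + 1) (adjusted p 0.791). The other 8 members lay between -0.01 and 0.06 on the log2 scale, and the median over the 10 was 0.01. CFLAR averaged 125 ± 4.52 CPM after S100A8/S100A9 and 125 ± 7.58 CPM in controls. TNFAIP2 averaged 92.2 ± 5.04 CPM after S100A8/S100A9 and 93.1 ± 5.92 CPM in controls.

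Counted library by library, S100A9 replicates 1, 2 and 3 had 8, 8 and 9 of the 10 members above the highest control. S100A8 replicates 1, 2 and 3 had 1, 3 and 0 members above it, and S100A8/S100A9 replicates had 4, 2 and 2. Over all genes, each treated library had between 23.5% and 28.2% of genes above the highest control. In CPM, NFKBIA lay above the highest control in all 3 libraries of both S100A9 and S100A8/S100A9.

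Compared directly, S100A9 exceeded S100A8 in NFKBIA. It had 53.95, 48.12 and 49.78 CPM after S100A9 and 41.40, 38.15 and 38.37 CPM after S100A8, with no overlap. The log2 difference of 0.36 (SE 0.06, 95% interval 0.23 to 0.49) had an edgeR adjusted p of 0.00488. This was the 1 member called, against 0.185% of all genes (23 higher and 2 lower). The call was lost without S100A8 replicate 2 (adjusted p 0.0593), without S100A8 replicate 3 (0.0627), without S100A9 replicate 1 (0.0613) and with limma on log2(FPKM + 1) (0.0753). In CPM, 9 of 10 members had every S100A9 library above every S100A8 library, against 6.41% of all genes, and CFLAR overlapped. On the FPKM scale NFKBIZ, TNFAIP3 and BIRC3 overlapped, and CFLAR lay wholly below. The BIRC3 difference turned to -0.08 with limma on log2(FPKM + 1), against 0.26 on counts. BCL3 averaged 9.76 ± 1.21 CPM after S100A9 and 7.89 ± 0.518 CPM after S100A8, a log2 difference of 0.31 (95% interval 0.07 to 0.55, edgeR adjusted p 0.539). TNIP1 averaged 59.7 ± 3.94 CPM after S100A9 and 51.1 ± 2.85 CPM after S100A8, a log2 difference of 0.23 (95% interval 0.11 to 0.35, edgeR adjusted p 0.169). The comparison uses the same S100A9 libraries as the comparison with control, so the values are not independent of those above.

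S100A8/S100A9 differed from S100A9 by small amounts in the members, none of which passed the test, against 0.252% of all genes called (4 higher and 30 lower). NFKBIA averaged 46.3 ± 2.84 CPM after S100A8/S100A9 and 50.6 ± 3.00 CPM after S100A9. The libraries overlapped, and the log2 difference was -0.13 (95% interval -0.25 to -0.00, edgeR adjusted p 0.696), so the 2 groups were not shown to differ in NFKBIA. TNFAIP2 came closest to the threshold, with 94.4, 95.8 and 86.5 CPM after S100A8/S100A9 and 107, 113 and 104 CPM after S100A9. Its log2 difference was -0.23 (95% interval -0.34 to -0.12, edgeR adjusted p 0.0715). NFKBIZ had 161, 179 and 160 CPM after S100A8/S100A9 and 186, 189 and 199 CPM after S100A9, a log2 difference of -0.20 (95% interval -0.29 to -0.10, edgeR adjusted p 0.0786). The DESeq2 Wald test called NFKBIZ here (adjusted p 0.0405), and edgeR without the low-count filter called both NFKBIZ (0.0314) and TNFAIP2 (0.0245). Over all genes 966 had an unadjusted p under 0.05. In 6 members, NFKBIZ, TNFAIP2, TNFAIP3, TNIP1, IER3 and BIRC3, every S100A8/S100A9 library lay below every S100A9 library in CPM, against 6.53% of all genes. On the FPKM scale TNFAIP3 and BIRC3 overlapped, and the BIRC3 difference turned to 0.07 with limma on log2(FPKM + 1), against -0.23 on counts. BCL3, which overlapped in CPM, lay wholly below in FPKM, at 4.3 to 4.66 after S100A8/S100A9 and 4.87 to 5.98 after S100A9. In CPM, CFLAR alone lay wholly above, against 5.94% of all genes, at 127, 127 and 119 CPM after S100A8/S100A9 and 115, 115 and 117 CPM after S100A9. Its log2 difference of 0.11 did not pass the test (edgeR adjusted p 0.662), and in FPKM the groups overlapped.

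Between S100A8/S100A9 and S100A8, 0% of genes and no member passed the test, with a smallest edgeR adjusted p of 0.443 and 598 genes at an unadjusted p under 0.05. The DESeq2 Wald test called 1 gene and no member there. NFKBIA had 48.32, 47.52 and 43.04 CPM after S100A8/S100A9 and 41.40, 38.15 and 38.37 CPM after S100A8, all S100A8/S100A9 libraries being higher. This was the 1 member so separated, against 4.45% of all genes. Its log2 difference was 0.24 (SE 0.06, 95% interval 0.11 to 0.37), with an unadjusted p of 0.00102 and an edgeR adjusted p of 0.980. Over the 4 groups NFKBIA thus ran in the order S100A9 at 50.6, S100A8/S100A9 at 46.3, control at 41.0 and S100A8 at 39.3 CPM. In that order S100A9 and S100A8/S100A9 overlapped, as did S100A8 and control, and no neighbouring groups differed past the threshold.

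The other genes of the pathway place the members among its inhibitors, effectors and secreted products. These lists share no gene with the members. Of 13 tested further inhibitors and ubiquitin editors, 1 rose after S100A9 and 0 fell, with a median log2 difference of -0.04. The gene that rose was ZC3H12A, encoding Regnase-1, an RNase that degrades inflammatory mRNAs, at 14.1 ± 0.698 CPM after S100A9 and 9.24 ± 0.637 CPM in controls. Its log2 difference was 0.61 (SE 0.10, edgeR adjusted p 0.00439). The inhibitor genes NFKBIB and NFKBIE, close relatives of NFKBIA, were at 0.02 and -0.05, and the deubiquitinase gene CYLD at -0.06. Of 12 tested survival and death regulators 0 passed the test, with a median of 0.01. BIRC2, the neighbour and relative of BIRC3, was at -0.12, BCL2L1 at 0.06 and MCL1 at -0.06. TRAF1 had the largest difference of that list, at -0.71 (SE 0.24, edgeR adjusted p 0.549), larger in size than that of any member. It averaged 1.77 ± 0.425 CPM after S100A9 and 2.92 ± 0.710 CPM in controls, with all S100A9 libraries below the controls. No other gene of that list was separated from the controls, and 6 of the 12 had differences above 0. Of 13 subunits and kinases of the pathway 0 passed, with a median of 0.00. NFKB1 was at 0.06, NFKB2 at 0.10, RELA at 0.05, and MAP3K14, the NIK kinase gene, at -0.28 with all S100A9 libraries below the controls (edgeR adjusted p 0.192). Of 8 adhesion molecules other than ICAM1 0 passed, with a median of -0.04, and VCAM1 was under 1 CPM on average in both groups.

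The secreted targets differed in scale. Of 21 listed, 15 were tested, of which 9 rose after S100A9 and 0 fell. Their median log2 difference was 1.08, against 0.20 for the feedback and survival members. Lists and members were chosen with earlier results of these data known, so this contrast is descriptive only. LCN2, an iron-binding antimicrobial protein and injury marker of the tubule, averaged 54.9 ± 18.9 CPM after S100A9 and 6.25 ± 2.32 CPM in controls, a log2 difference of 3.15 (SE 0.33, edgeR adjusted p 0.00905). CCL20, a chemokine for lymphocytes and dendritic cells, averaged 2.77 ± 0.592 CPM after S100A9 and 0.540 ± 0.238 CPM in controls, a log2 difference of 2.37. The colony-stimulating factor gene CSF2 was at 1.48, and the acute phase genes SAA2 and SAA1 were at 2.77 and 2.66. SAA2 averaged 1.79 ± 0.0656 CPM after S100A9 and 0.257 ± 0.0728 CPM in controls. SAA1 averaged 3.03 ± 0.205 CPM after S100A9 and 0.473 ± 0.0563 CPM in controls. SAA1, SAA2 and CCL20 averaged under 1 CPM in every group but S100A9, which is few counts. The low-count filter may have kept them only for their S100A9 libraries. Their calls, and their part in the 9 that rose and in the median of 1.08, are therefore no independent support. SAA1 and SAA2 are near-identical, so their reads can be split between them. Each of these rising genes lay further from control on the log2 scale than any of the 10 members. After S100A8 and after S100A8/S100A9, 0 genes of every list passed against control, and the secreted targets had medians of -0.01 and -0.03.

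**Figure D3:**
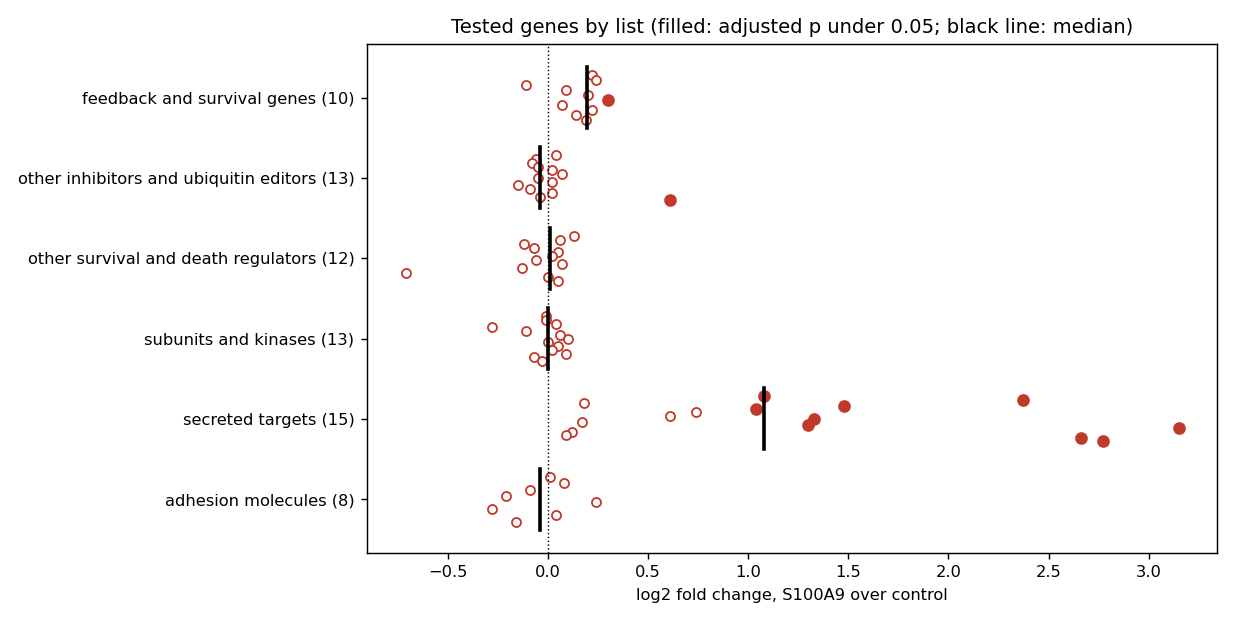
Log2 fold change of each tested gene, S100A9 over control, by list, with filled points for an adjusted p under 0.05, open points for others and a black line at the list median. The members cluster between -0.11 and 0.30 around a median of 0.20, whereas the secreted targets reach 3.15 around a median of 1.08. All lists were chosen with earlier results of these data known. The secreted median includes SAA1, SAA2 and CCL20, which the low-count filter may have kept only for their S100A9 libraries.

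**Figure D4:**
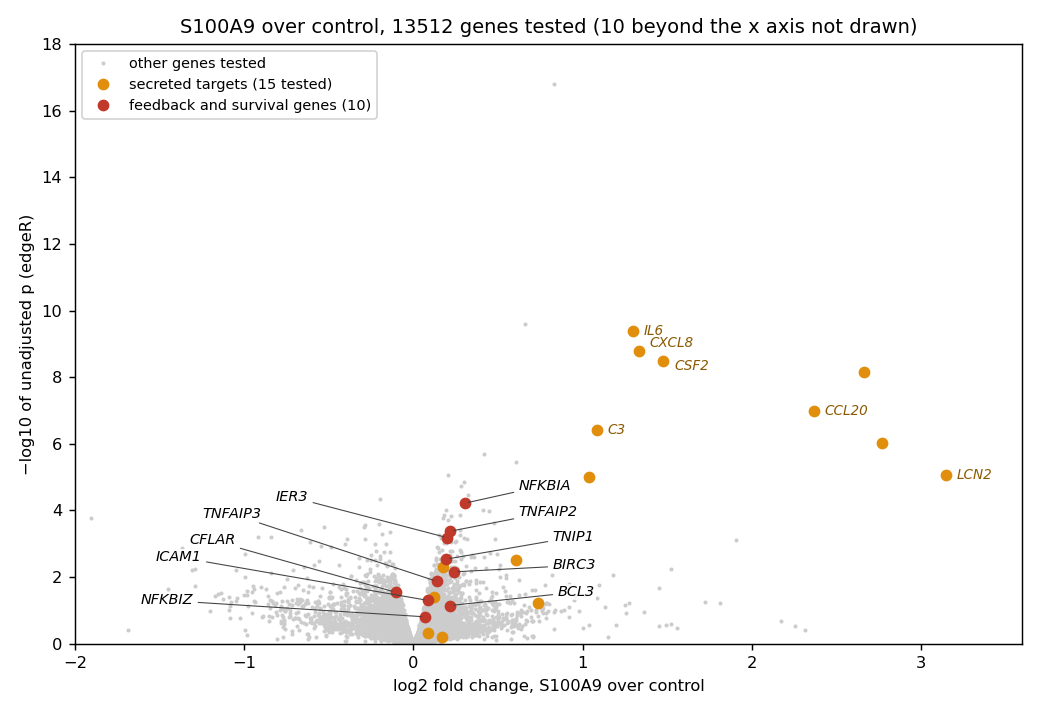
Log2 fold change, S100A9 over control (x axis), against the negative log10 of the unadjusted edgeR p (y axis) for 13512 genes, of which 10 beyond the x axis are not drawn. The 10 feedback and survival members (red) stay within 0.30 of 0, and 9 of 15 secreted targets (orange) lie past 1. Both lists were chosen with earlier results of these data known. The 9 include SAA1, SAA2 and CCL20, which the low-count filter may have kept only for their S100A9 libraries.

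Genes whose pattern over the 12 libraries was most like that of NFKBIA were sought among 9911 genes with a mean of at least 10 CPM, by the root mean square difference of log2 CPM centred on each gene's mean. The nearest were TNC at 0.077, TBC1D10B at 0.083, EPHB2 at 0.085, ATP6V0E1 at 0.086 and ZNF394 at 0.089. TNC, the extracellular matrix protein tenascin-C, had log2 differences from control of 0.28 after S100A9, 0.02 after S100A8 and 0.23 after S100A8/S100A9, and it did not pass the test. For scale, a gene that does not vary at all would lie at 0.158, and the median gene lay at 0.173. Of the members IER3 was nearest at 0.112, which ranked 91st, BIRC3 lay at 0.122, TNFAIP3 at 0.127, TNIP1 at 0.131, ICAM1 at 0.134 and TNFAIP2 at 0.136. BCL3 at 0.156 lay about as far as a flat gene. NFKBIZ at 0.171 and CFLAR at 0.177 lay further from NFKBIA than a flat gene would.

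**Figure D5:**
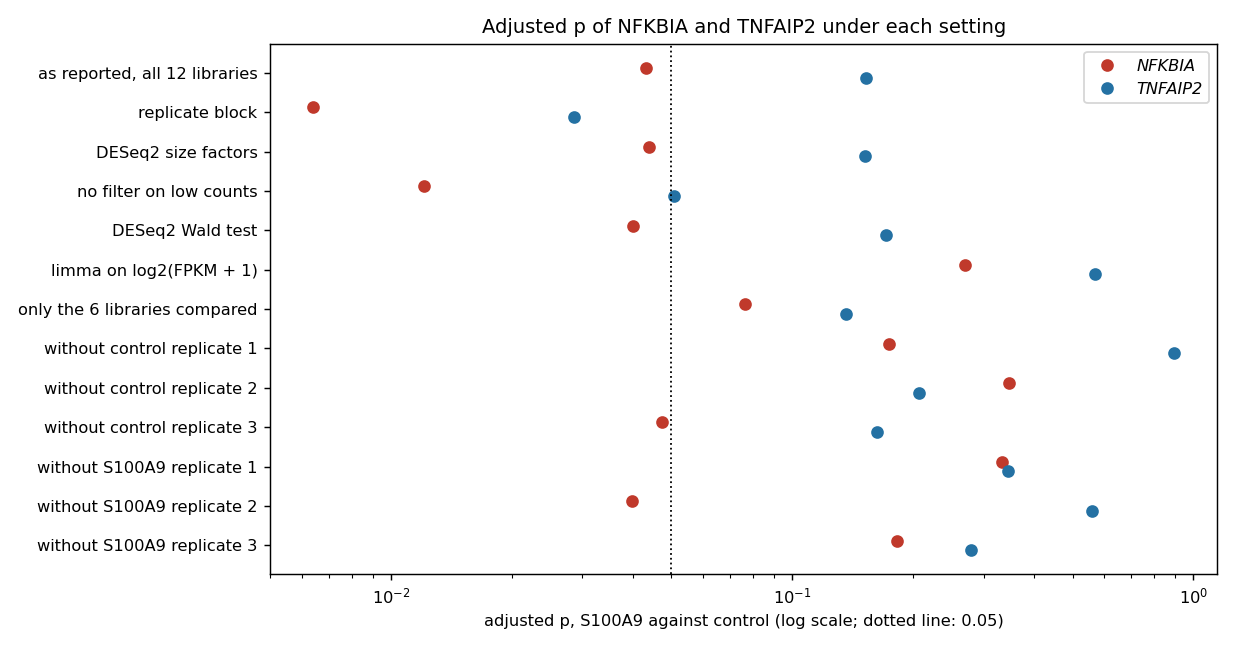
Adjusted p of NFKBIA (red) and TNFAIP2 (blue), S100A9 against control, as reported and under 12 alternatives (log x axis, dotted line at 0.05). NFKBIA lies under the line in 6 of the 12 alternatives, with values of 0.00639 to 0.347, and TNFAIP2 in 1, the replicate block.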

How the data were processed

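The authors deposited 1 table for all 12 libraries, which holds expected counts (read estimates, 12.0% of entries being fractional) and FPKM for each gene, per the file headers. FPKM is the authors' own scaling to gene length and depth. Per the labels' protocols, RNA was enriched with oligo(dT) beads and reverse transcribed with random primers. The aligner is not given in the sources used here, nor are the counting tool and annotation. Mouse builds, GRCm38 and mm10, are listed in the submitters' processing notes, whereas the gene IDs are human, so the build behind the counts is not known and coordinates come from GENCODE release 29 on GRCh38. A gene-name table named 20228 of the 20286 IDs and GENCODE 50 more, and 8 had no name.

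Counts were rounded and tested in R 4.3.3 with edgeR 4.0.16: filterByExpr (minimum count 10), TMM, robust quasi-likelihood, 1 coefficient for each group over all 12 libraries, no block, 8 residual degrees of freedom, Benjamini-Hochberg over 13512 genes within each of 6 comparisons. The 3 comparisons with control share their controls. The 95% intervals use the t distribution of the quasi-likelihood statistic. Library totals of 15882193 to 20748334 mean that a count of 0 allows 3 counts, between 0.145 and 0.189 CPM by library. Floors cover counting error only. No 2 replicates agreed within sampling noise.

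Alternatives were the replicate number as a block, DESeq2 1.42.0 size factors and Wald test, no low-count filter, limma 3.58.1 on log2(FPKM + 1) for genes averaging at least 0.5 FPKM, only the 6 libraries compared, and leaving out each library. Libraries with the same number deviated together in S100A9 and control (correlations 0.217, 0.412 and 0.131 over genes, for replicates 1 to 3) and in S100A8 and control (0.231, 0.279 and 0.105). In those comparisons the block is given beside the result. The labels do not say what a number marks. Fits were tested on simulated data.

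Named genes were all members, up to 5 passing genes per pathway list by size of difference, and the 5 genes nearest to NFKBIA. List genes named with values that did not pass were chosen after their values were seen. The members, lists and markers were chosen with earlier results of these data known. Sequences are from RefSeq promoters of GRCh38.p14.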

Additional observations from a re-analysis of the deposited data

How the results depend on the processing

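Under 12 alternatives to each member's 6 comparisons, 720 values in all, 701 kept their side of the threshold, 10 lost a call, 9 gained one and 0 called values changed sign. Of 58 uncalled combinations of gene and comparison, 17 had the other sign under at least 1 alternative. For NFKBIA in S100A9 against control the log2 difference ranged from 0.25 to 0.34 and the adjusted p from 0.00639 to 0.347.

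The replicate block gave 42 genes in S100A9 against control, 2 in S100A8 against control, 2 in S100A8/S100A9 against control, 69 in S100A9 against S100A8 and 71 in S100A8/S100A9 against S100A9. Members called under the block numbered 2 in S100A9 against control, 3 in S100A9 against S100A8 (NFKBIA, TNFAIP2 and TNIP1) and 2 in S100A8/S100A9 against S100A9 (TNFAIP2 and NFKBIZ). It changed no other call of a member. Outside the comparisons of S100A9 and of S100A8 with control the samples share only a number. Over all comparisons 12 of 18 same-numbered pairs correlated above 0.1, and 8 of 12 libraries were closest to a library with their own number.

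Without the low-count filter 2 members passed in S100A8/S100A9 against S100A9 (TNFAIP2 and NFKBIZ). The DESeq2 Wald test called 1 gene in S100A8/S100A9 against control, 1 in S100A8/S100A9 against S100A8, and 1 member, NFKBIZ, in S100A8/S100A9 against S100A9. With limma on log2(FPKM + 1) the counts were 13 genes and 0 members in S100A9 against control, 0 genes in S100A8 against control, 10 genes and 0 members in S100A9 against S100A8, and 13 genes in S100A8/S100A9 against S100A9. With only the 6 libraries compared, they were 0 members in S100A9 against control, 0 genes in S100A8 against control and 2 genes in S100A8/S100A9 against control. The cause of these shifts was not tested.

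Leaving out 1 library at a time gave 11 to 22 genes and 0 to 1 members in S100A9 against control, the fewest without control replicate 2 (11), control replicate 1 (12) and S100A9 replicate 3 (13). It gave 0 to 2 genes in S100A8 against control and 0 to 2 in S100A8/S100A9 against control, 2 in both without control replicate 1. For S100A8 against control it was 0 on leaving out control replicate 2, or replicate 1 or 2 of S100A8. In S100A9 against S100A8 it gave 14 to 24 genes and 0 to 1 members, with 14 genes on leaving out replicate 2 of S100A8 or replicate 3 of S100A9. In S100A8/S100A9 against S100A9 it gave 14 to 31 genes and 0 to 1 members, with 16 and 15 genes on leaving out replicates 2 and 3 of S100A9, and 14 and 19 on leaving out replicates 1 and 3 of S100A8/S100A9. The member called there, on leaving out replicate 2 of S100A8/S100A9, was NFKBIZ.

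Precision was limited by 3 libraries per group. For BCL3 counting error alone gave a coefficient of variation of 8.38% in a control library, against 1.87% for ICAM1, and the SE of its log2 difference after S100A9 was 0.12, against 0.06 for NFKBIA.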

Other observations

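Counts and FPKM of the same library imply a gene length, count divided by FPKM and library total, and for some members that length differed between libraries. For NFKBIA it lay between 1551 and 1557 bases, for IER3 between 1244 and 1248 and for ICAM1 between 2956 and 2967. For TNFAIP3 it lay between 3077 bases in S100A8/S100A9 replicate 3 and 3914 bases in control replicate 2, a ratio of 1.27. For BIRC3 it lay between 2877 bases in S100A8/S100A9 replicate 1 and 4850 bases in S100A9 replicate 2, a ratio of 1.69. Among 8370 genes with at least 200 counts and 5 FPKM in every library the median ratio was 1.08, and 0.562% reached the ratio of BIRC3. The unit therefore matters for these members. On the FPKM scale BIRC3 lay at 5.17 to 6.18 in S100A9 libraries, 4.9 to 7.4 in S100A8 libraries, 5.26 to 7.02 in S100A8/S100A9 libraries and 4.94 to 5.13 in controls, so that S100A8 and not S100A9 held the highest library. In FPKM 6 members had all S100A9 libraries above the controls, against 8 in CPM. The share of all genes so separated was not computed in FPKM, so the 6 have no background on that scale. TNFAIP3, at 19.55 to 23.34 FPKM after S100A9 and 17.89 to 21.62 FPKM in controls, and TNIP1, at 24.61 to 28.12 FPKM after S100A9 and 22.61 to 25 FPKM in controls, overlapped there. NFKBIA, IER3 and ICAM1 were separated on both scales. The cause was not tested.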
